A study of Mus musculus with 6 samples.

Results

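The genes for the eIF4E-binding proteins, *Eif4ebp1*, *Eif4ebp2* and *Eif4ebp3*, and for their target *Eif4e* were examined in the liver of mouse pups with and without an activated human *SRY* transgene. All probes carrying 1 of these 4 symbols were taken, which gave 1 probe per gene, 4 of the 25697 probes and 4 of the 18138 gene symbols on the array. The family was selected on the difference between these same hSRY-ON and hSRY-OFF arrays, in which *Eif4ebp3* had one of the largest rises. The differences between groups for the 4 genes are therefore given as descriptions, with no test.

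Total RNA came from the liver of male FVB/N pups at postnatal day 6, with 3 mice per group and 1 Illumina MouseRef-8 BeadChip array per mouse. By the definition in the study's methods, mice of both groups carried the *Signalox-hSRY* transgene, a single copy placed at the *H11* locus under the ubiquitous CAG promoter. In hSRY-OFF mice the transgene was not recombined, so that it expressed DsRed2 and the human gene stayed silent. In hSRY-ON mice, Cre protein carried over from the oocyte of a *Ddx4-Cre* mother had removed the floxed DsRed2 cassette in the early embryo, and FLAG-tagged human SRY and EGFP were expressed instead. The hSRY-ON mice chosen for the arrays had not inherited *Ddx4-Cre* itself. Both groups came from 1 responder line, the CAG promoter is active far beyond the cells that normally express SRY, and the array held no probe for the human transgene, so the genotype was not checked here. The study also uses control littermates without the transgene, and its text calls the array controls by both names, so hSRY-OFF is used here as the sample labels give it.

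The 4E-binding proteins are small repressors of cap-dependent translation. In their unphosphorylated form they occupy the surface of eIF4E, the protein that binds the mRNA cap, which eIF4G needs to recruit the ribosome. The kinase complex mTORC1 phosphorylates them when nutrients and growth factors are plentiful, which releases eIF4E, while transcription of *Eif4ebp1* and *Eif4ebp3* is known to rise under several kinds of stress through ATF4 or TFE3. The arrays measured mRNA only, not the protein or its phosphorylation.

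Promoter windows of RefSeq (build GRCm38.p6, the 250 bases before each annotated start) were held for 2 of the 4 genes. The palindrome CACGTG, the E-box that MYC and the TFE3 family recognise, was searched in them, with both strands read at once because the motif is its own reverse complement. It was found 2 times in a window of *Eif4e*, 222 and 58 bases before the start, and in neither the other *Eif4e* window nor that of *Eif4ebp2*. Both sequences are shown because they are the pair with and without the motif, which is in capitals.
*Eif4e*, chr3:138527018-138527267, plus strand: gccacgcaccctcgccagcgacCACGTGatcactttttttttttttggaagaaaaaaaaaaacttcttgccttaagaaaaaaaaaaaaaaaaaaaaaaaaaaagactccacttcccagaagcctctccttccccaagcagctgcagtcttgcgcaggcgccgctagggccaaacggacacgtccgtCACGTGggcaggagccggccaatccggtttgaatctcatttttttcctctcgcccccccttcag
*Eif4ebp2*, chr10:61452670-61452919, minus strand: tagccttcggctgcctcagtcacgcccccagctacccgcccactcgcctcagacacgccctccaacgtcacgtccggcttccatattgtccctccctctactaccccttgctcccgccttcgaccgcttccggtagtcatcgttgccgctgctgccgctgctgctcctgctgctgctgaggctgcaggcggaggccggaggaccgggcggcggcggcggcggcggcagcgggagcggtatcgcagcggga
Of 32851 such windows of all genes, 1978 (6.02%) held the motif and 141 (0.429%) held it at least 2 times. A match of these letters is a description of the sequence and does not show that a factor binds there.

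The 6 arrays had median intensities of 147 to 165 (arbitrary units), with 40.2% to 41.9% of probes detected at a detection p under 0.01. Their mean intensities ran from 583 to 719, and replicate 3 was the dimmest array of each group. The hepatocyte genes *Alb*, *Apoa1*, *Trf* and *Ttr* were detected on every array, as the liver label implies. The single *Alb* probe was dim, however, with deposited intensities of 202 to 448, while those of *Apoa1*, *Trf* and *Ttr* were 17191 to 42199. Its values are therefore a poor measure of the *Alb* level. Hepatocyte markers summed to 125226 to 132355 normalized units in hSRY-OFF and 119212 to 133091 in hSRY-ON, but 4 of 9 tested probes, those of *Alb*, *Ttr* and *Serpina1a*, were called lower and none higher. For this and the other marker counts, the shares over all tested probes were 15.8% called higher and 17.3% lower. Of 11 tested macrophage probes, 4 were called lower (*Clec4f*, *Vsig4* and *Adgre1*) and 1 higher (*Csf1r*), with sums of 14701 to 16187 in hSRY-OFF and 9634 to 18505 in hSRY-ON. The brightest probe in this sum, one of *Lyz2*, was not called. Its deposited intensities were 5584, 5582 and 11003 in hSRY-ON replicates 1, 2 and 3, against 7651 to 9844 in hSRY-OFF. The *Clec4f* probe ILMN_2876653 was detected on no hSRY-ON array and likewise passed the detection filter through hSRY-OFF alone. Replicate 3 of hSRY-ON stood apart, with the neutrophil lineage markers at 105978 against 40398 to 60573 on the other 5 arrays and the biliary markers at 1820 against 204 to 585. The biliary sum was carried by *Cldn4* alone, which was called higher in hSRY-ON, while *Krt7* was not called. *Cldn4* was detected on no hSRY-OFF array and passed the detection filter through its hSRY-ON arrays alone, so its call depends on that filter. None of the 10 tested neutrophil probes was called between the groups at an adjusted p under 0.05, and the bile duct genes *Krt19* and *Sox9* were detected on no array. Markers of stellate cells and fibroblasts summed to 8508 to 9582 in hSRY-OFF and to 19211 to 21203 in hSRY-ON livers. Of their 12 tested probes, 5 were called higher, of which 4 were probes of *Acta2* that carried the sum and 1 of *Des*, and 2 were called lower, those of *Lrat* and *Lum*. *Lrat* was detected on no hSRY-ON array and passed the detection filter through its hSRY-OFF arrays alone, so its call depends on that filter. Of 8 tested endothelial probes, 3 were called higher (*Lyve1* and *Pecam1*) and 1 lower (*Clec4g*). The endothelial sums overlapped, at 9147 to 11094 in hSRY-OFF and 8283 to 10412 in hSRY-ON. In whole liver, more RNA per cell and more cells of one type cannot be told apart, for these markers and for every gene that follows.

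*Eif4ebp3* (probe ILMN_2895312) went from background to a bright signal. Its deposited intensities, which were not background-subtracted, were 144, 162 and 142 in hSRY-OFF replicates 1, 2 and 3, with detection p-values of 0.465, 0.0965 and 0.183. In hSRY-ON replicates 1, 2 and 3 they were 1913, 3571 and 599, each with a detection p of 0. The probe was thus not well above background on any hSRY-OFF array and detected on every hSRY-ON array, with no overlap between the groups. Replicate 2 was the brightest of the hSRY-ON arrays and replicate 3 the dimmest, and the brightest exceeded the dimmest 5.97-fold.

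After normalization the 3 hSRY-ON arrays gave log2 intensities of 10.71, 11.83 and 9.10 for *Eif4ebp3* (10.55 ± 1.37, SD, n = 3). Set against the lowest detected signal of the hSRY-OFF arrays, hSRY-ON livers were brighter by at least 28.0-fold, a bound that holds for this background subtraction only. The ratio of the mean deposited intensities, which still contain the background, was 13.6. The fitted log2 difference, hSRY-ON minus hSRY-OFF, was 5.69 ± 0.60 (SE), rank 3 among the rises of the 10734 probes tested, but it depends on how background is subtracted and was 4.61 with an offset of 50, 3.48 without subtraction and 3.45 without subtraction and with trimmed mean scaling. With no filter on detection, the difference was 5.06 without hSRY-ON replicate 2, the brightest, and 6.45 without hSRY-ON replicate 3, the dimmest. These values chose the gene and are not evidence about the family. In rank terms the probe moved from between the 25.6 and 48.0 percentile of its array in hSRY-OFF to between the 84.5 and 96.9 percentile in hSRY-ON.

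*Eif4ebp1* (ILMN_2670398), the most studied of the 3 binding proteins, was detected on all 6 arrays. Its deposited intensities were 1413, 1519 and 1029 in hSRY-OFF and 4510, 3359 and 2270 in hSRY-ON replicates 1, 2 and 3. Every hSRY-ON value lay above every hSRY-OFF value. Replicate 3 was the dimmest in each group, as it was in the mean intensity of the whole array. Normalized log2 intensities were 10.20, 10.28 and 10.11 in hSRY-OFF (10.19 ± 0.09, SD, n = 3) and 12.03, 11.74 and 11.28 in hSRY-ON (11.68 ± 0.38, SD, n = 3). The difference was 1.49 ± 0.20 (SE), a fold of 2.81. Leaving out any 1 array gave 1.33 to 1.70.

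*Eif4ebp2* (ILMN_2673566), a binding protein with the same cap-complex target, was also detected on all 6 arrays. Its deposited intensities were 586, 545 and 388 in hSRY-OFF and 631, 460.0 and 371 in hSRY-ON replicates 1, 2 and 3. The groups overlapped throughout, and within each group the order of the replicates was the same. Replicate 3, the lowest in each group, was also the array of lowest mean intensity there. The normalized means were 8.54 ± 0.18 and 8.47 ± 0.32 (SD, n = 3 each), which differed by -0.07 ± 0.19 (SE; 95% interval -0.51 to 0.37). The sign of so small a difference was not fixed, since it became 0.01 without hSRY-OFF replicate 1 and 0.08 without hSRY-ON replicate 3. The interval leaves room for a fall or a rise of that size, so the data do not show an equal level.

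For *Eif4e* (ILMN_1260038), which encodes the cap-binding protein itself, the single probe was not well above background on any array. Its intensities were 152, 155 and 123 in hSRY-OFF and 155, 140.3 and 139.6 in hSRY-ON replicates 1, 2 and 3, all below the median of their array (percentiles 2.76 to 42.1), with detection p-values from 0.183 to 0.934. No fold is given for it, and a change of *Eif4e* mRNA was not measurable with this probe.

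**Figure D1:**
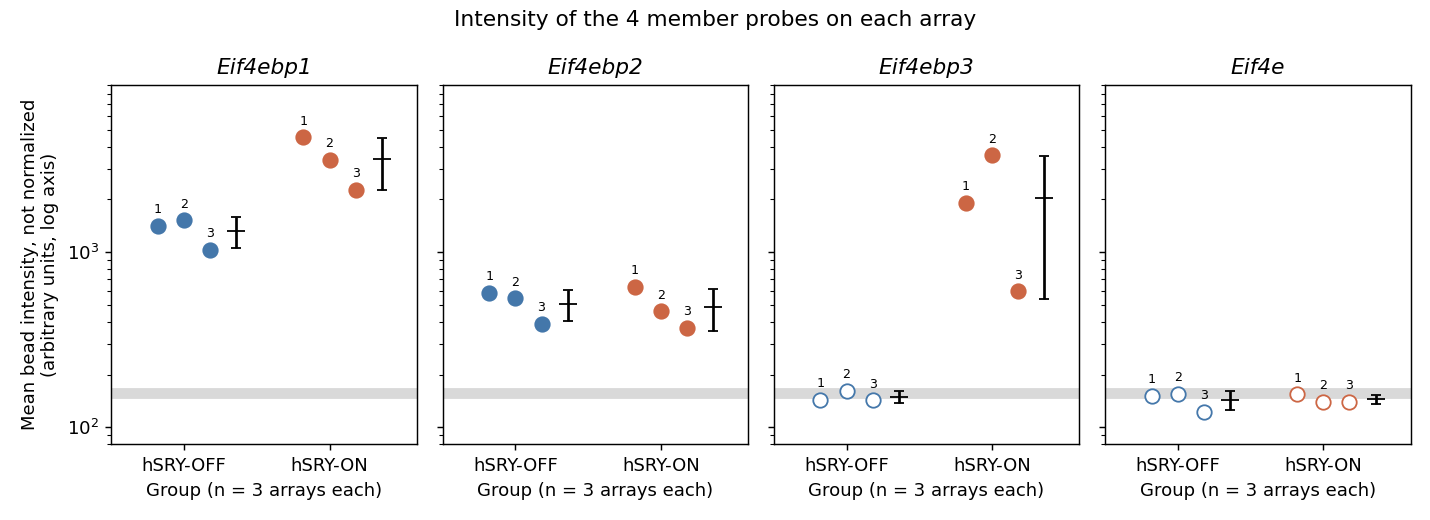
Deposited mean bead intensity (arbitrary units, not normalized, log axis) of the 4 probes on each array, hSRY-OFF in blue and hSRY-ON in red, with replicate numbers; open circles were not detected at a detection p under 0.01, black bars are the mean ± SD of 3 arrays, and the grey band spans the 6 array medians. *Eif4ebp3* rises above the grey band in hSRY-ON (599 to 3571), *Eif4ebp1* rises without overlap (2270 to 4510 against 1029 to 1519), *Eif4ebp2* overlaps and *Eif4e* lies in or below the band.

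*Eif4ebp1* and *Eif4ebp3* were 2 genes whose hSRY-ON values all lay above the hSRY-OFF values, as did those of 25.4% of the 10734 tested probes. Nothing is read from that count, since the family was picked on this contrast and *Eif4ebp3* passed the detection filter through its hSRY-ON arrays alone. Of all tested probes, 15.8% were called higher and 17.3% lower at an adjusted p under 0.05, or 33.1% in either direction.

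Comparing 2 probes within an array removes what is common to the array, although the offset between probes has no meaning of its own. The log2 difference *Eif4ebp1* minus *Eif4ebp2* was 1.48, 1.73 and 1.75 in hSRY-OFF and 3.22, 3.31 and 3.11 in hSRY-ON replicates 1, 2 and 3. It shifted by 1.56, from 1.65 ± 0.15 to 3.22 ± 0.10 (SD, n = 3 each). The spread among the hSRY-ON arrays was narrower than for *Eif4ebp1* alone, as both probes were brightest in replicate 1 and dimmest in replicate 3. Among the hSRY-OFF arrays it was wider (SD 0.15 against 0.09). The difference *Eif4ebp3* minus *Eif4ebp1* was -5.55, -5.27 and -5.21 in hSRY-OFF, where *Eif4ebp3* was not detected, and -1.32, 0.09 and -2.18 in hSRY-ON. The hSRY-OFF values of this pair are set by the background step and give no measured starting point. Among the hSRY-ON arrays the pair was highest in replicate 2 and lowest in replicate 3.

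**Figure D2:**
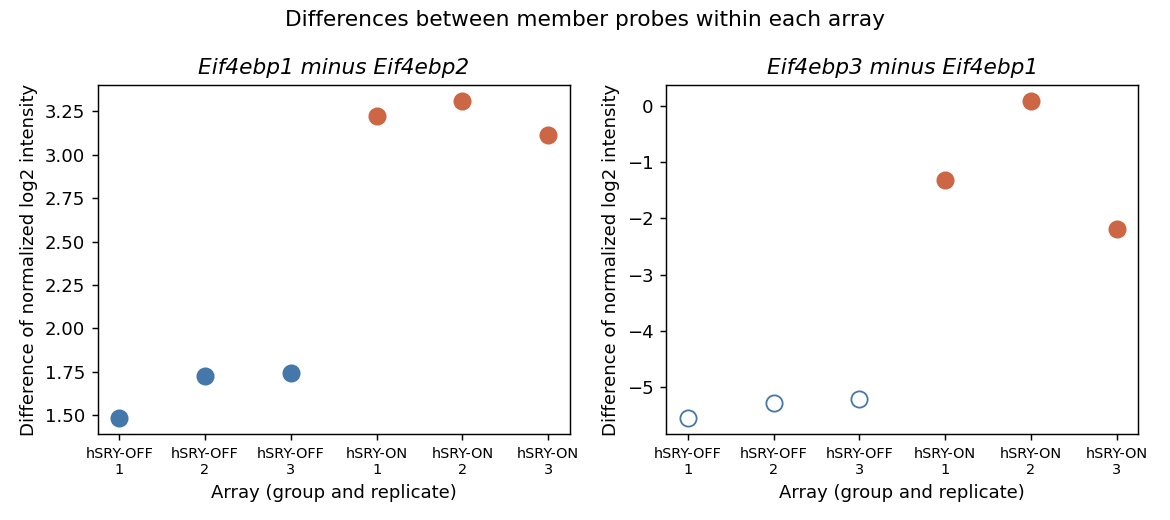
Difference in normalized log2 intensity between a pair of probes on each of the 6 arrays, *Eif4ebp1* minus *Eif4ebp2* on the left and *Eif4ebp3* minus *Eif4ebp1* on the right (the vertical scales differ); blue is hSRY-OFF, red is hSRY-ON and open circles mark arrays on which *Eif4ebp3* was not detected, so that their height depends on the background step. The left pair holds at 1.48 to 1.75 in hSRY-OFF and 3.11 to 3.31 in hSRY-ON, while the right pair spreads from -2.18 to 0.09 among hSRY-ON arrays.

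The order of *Eif4ebp3* in hSRY-ON, with replicate 2 highest and replicate 3 lowest, was not that of *Eif4ebp1*, with replicate 1 highest and replicate 3 lowest. Replicate 3 was the array with the high neutrophil lineage and biliary markers, and the part of those markers in the low values of that array was not tested. The stellate and fibroblast marker sum, in contrast, was of similar size in all 3 hSRY-ON livers.

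Over the 6 arrays, the probes whose pattern was most like that of *Eif4ebp1* were those of *Lox*, a collagen crosslinking enzyme (Pearson r 0.999), *Pfkp*, a phosphofructokinase (0.998), and *Pdpk1*, the kinase PDK1 (0.998). For *Eif4ebp3* they were *Ddx28* (0.999), a helicase gene, *Chkb* (0.997), encoding choline kinase beta, and *Ldb1* (0.997), a transcriptional cofactor. For *Eif4ebp2* they were *Mtch1* (0.986), *Plekhf1* (0.982) and *Sh2b1* (0.976), whose own differences lay between -0.07 and 0.00. These correlations across 6 arrays in 2 groups mainly restate the group difference where there is one, and r was above 0.95 for 517, 548 and 14 of the 10733 other tested probes for *Eif4ebp1*, *Eif4ebp3* and *Eif4ebp2*. *Eif4ebp1* and *Eif4ebp3* themselves were correlated with r 0.974.

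The genes around the binding proteins were taken from 5 lists of the cap-dependent and stress-dependent control of translation. Of their 80 tested probes, 27 were called higher and 4 lower (38.8% called, against 33.1% of all tested probes), with a median difference of 0.31 against 0.02. The direction of these counts held, but their size did not: without hSRY-OFF replicate 1 or 2 only 8 were called higher, without hSRY-ON replicate 1 it was 17, and with median scaling it was 16. The number called lower was 0 to 8 when 1 array was left out, with 8 without hSRY-ON replicate 3. All adjusted p-values below are from limma with Benjamini-Hochberg adjustment over the 10734 probes.

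**Figure D3:**
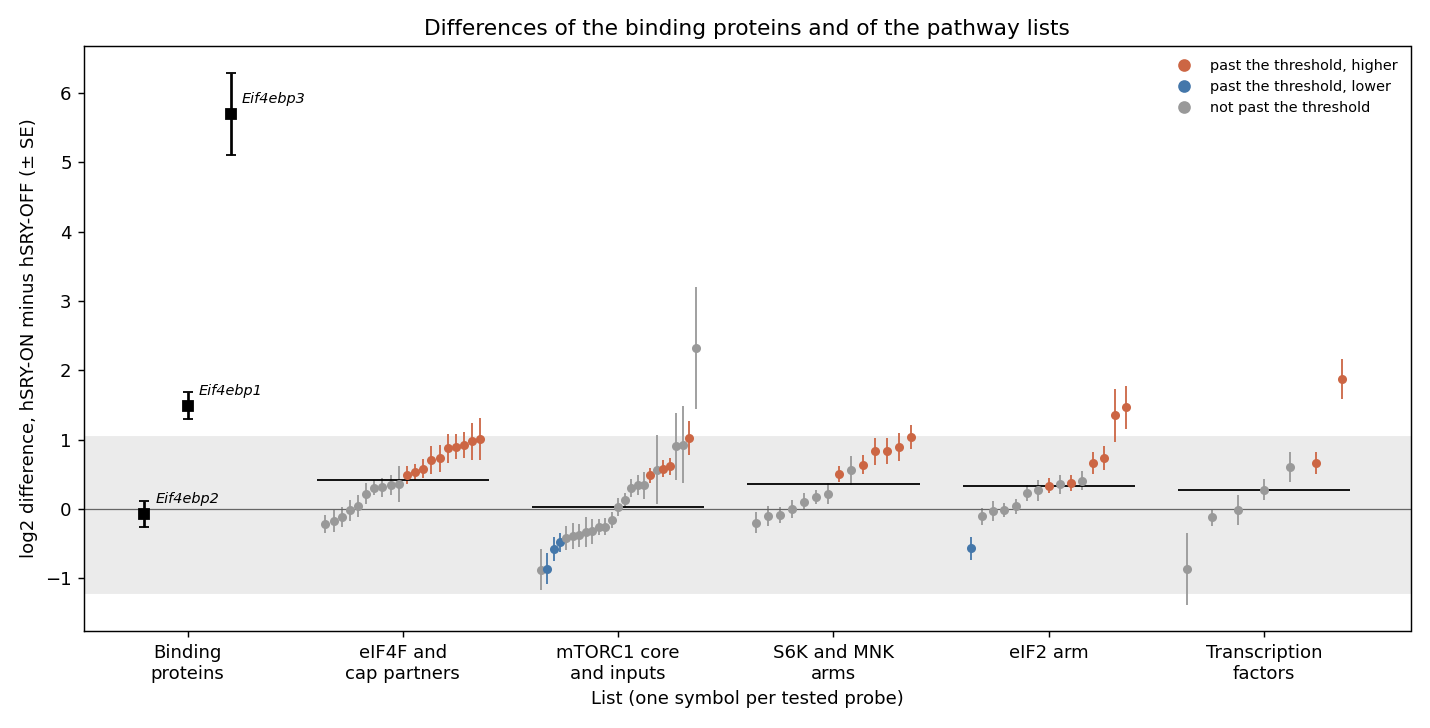
Log2 difference, hSRY-ON minus hSRY-OFF, of the 3 tested binding protein genes (black squares, shown without a test) and of each tested probe of the 5 lists of translation control genes (points, coloured by whether they passed an adjusted p of 0.05), each ± SE, with the list median as a black line and the 5th to 95th percentile of all tested probes, -1.20 to 1.04, as a grey band. Medians are 0.42 for the cap complex, 0.03 for mTORC1, 0.36 for the S6K and MNK arms, 0.34 for the eIF2 arm and 0.28 for the transcription factors, and the list points above the grey band are those of *Ddit4*, *Ppp1r15a*, *Ddit3* and *Myc*.

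Among the partners of eIF4E in the cap complex, 10 of 20 tested probes (50%) were called higher and none lower, with differences from -0.21 to 1.01. Of all tested probes, 15.8% were called higher and 17.3% lower. *Pabpc1*, the poly(A)-binding protein that links the tail of an mRNA to its cap, rose by 0.90 ± 0.18 (SE, adjusted p 0.00891), and all 3 of its probes were called. *Paip1*, a partner of that protein, rose by 0.93 ± 0.19 (adjusted p 0.0101) on the 1 of its 2 probes that was detected, on 2 of 3 hSRY-OFF and all 3 hSRY-ON arrays. Of the helicases that unwind the leader, *Eif4a2* rose by 0.53 ± 0.12 (adjusted p 0.0123), and *Eif4a1* rose by 0.58 ± 0.14 (adjusted p 0.0171) on 1 of its 2 probes. The scaffold *Eif4g1*, whose binding the 4E-binding proteins block, gave -0.21 (adjusted p 0.25). *Eif4enif1*, which carries eIF4E into the nucleus, gave 0.31 and 0.22 (adjusted p 0.13 and 0.29).

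The relatives of *Eif4e*, chosen for mention after their values were seen, were measurable where *Eif4e* was not. *Eif4e3* gave 0.98 and 1.01 on 2 probes (adjusted p 0.0293 and 0.0382) and 0.36 on another that did not pass (adjusted p 0.306). *Eif4e2* passed on 1 of 3 probes (0.49, adjusted p 0.0259), while the other two gave 0.04 and -0.11. *Eif4b*, a helper of the helicase, gave 0.73 (adjusted p 0.0243). Arrays mattered here. Without hSRY-OFF replicate 1 or 2 the list kept 3 and 2 calls, and without hSRY-OFF replicate 3 it kept 6. *Pabpc1* (first probe) and *Paip1* passed in all 15 alternatives, with adjusted p from 0.00686 to 0.0406 and from 0.00894 to 0.0343. The other *Pabpc1* probes lost their call in 2 and 8 of the 15, with adjusted p up to 0.0706 and 0.108, both without hSRY-OFF replicate 1. *Eif4a2* missed the threshold without hSRY-OFF replicate 2 (0.0504) and with median scaling (0.0935, the highest of a range from 0.00266), and *Eif4a1* without hSRY-OFF replicate 1 (0.0683) or 2 (0.0636, range 0.0084 to 0.0683). Leaving out 1 array took the call from *Eif4b* in 5 of 6 cases (range over all alternatives 0.00178 to 0.0802), and from *Eif4e3* (0.0198 to 0.114 over its 2 called probes) without any of the hSRY-OFF arrays. *Eif4e2* lost its call without hSRY-OFF replicate 1 or 2 or hSRY-ON replicate 1 or 2 (range 0.0261 to 0.0976).

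The mTORC1 list, the kinase complex that switches the 4E-binding proteins off and its inputs, had 4 of 25 tested probes called higher and 3 lower, 28% in all and thus no more than the 33.1% of all probes. *Pdpk1*, which activates AKT upstream of mTORC1, rose by 0.62 ± 0.12 (SE, adjusted p 0.00833). The GTPases that recruit and activate the complex at the lysosome, *Rragc* and *Rheb*, rose by 0.58 ± 0.13 (adjusted p 0.0121) and 0.49 ± 0.11 (adjusted p 0.0131), with a second *Rheb* probe detected on no array. *Flcn*, which acts on RagC and was chosen for mention after its value was seen, gave 1.03 (adjusted p 0.0185). A second tested *Flcn* probe, near background, gave 0.57 with overlapping groups and was not called (adjusted p 0.414). *Lamtor2*, part of the lysosomal anchor of the Rag GTPases, fell by 0.86 (SE 0.22, adjusted p 0.0242), *Tbc1d7*, a subunit of the TSC complex that inhibits Rheb, fell by 0.57 (SE 0.18, adjusted p 0.0438), and *Prkab1*, a subunit of AMPK, fell by 0.48 (SE 0.14, adjusted p 0.0369).

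The falls were the less stable calls, and a second tested probe of *Tbc1d7* gave -0.32 (adjusted p 0.201). *Lamtor2* was not called without hSRY-OFF replicate 1 (adjusted p 0.0749) or 3 (0.0603) or hSRY-ON replicate 1 (0.0780), in a range from 0.0091 to 0.0780. *Prkab1* and *Tbc1d7* were called only with all arrays or without hSRY-ON replicate 3 when 1 array was left out, and their adjusted p ran from 0.0157 to 0.127 and from 0.0123 to 0.141 over the alternatives. With the replicate number as a block they were 0.0632 and 0.0512. *Rheb* was not called without hSRY-OFF replicate 1 (0.0632, range 0.00327 to 0.0862), and *Flcn* without hSRY-OFF replicate 1 or 2 or hSRY-ON replicate 1 (range 0.003 to 0.0757). *Pdpk1* and *Rragc* kept their call with any 1 array left out and missed it with trimmed mean scaling (0.0541) and with median scaling (0.0877), the highest values of ranges from 0.00583 and 0.00435.

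*Ddit4*, the stress-induced inhibitor of mTORC1 known as REDD1, had the widest spread of the list. Its intensities were 416, 707 and 481.0 in hSRY-OFF and 3799, 5142 and 481.9 in hSRY-ON replicates 1, 2 and 3. Replicates 1 and 2 of hSRY-ON were far above the hSRY-OFF arrays and replicate 3 lay among them. As for *Eif4ebp3*, replicate 2 was the highest and replicate 3 the lowest of the hSRY-ON arrays. The difference was 2.32 ± 0.88 (SE, adjusted p 0.0791), and without hSRY-ON replicate 3 it was 3.46 (adjusted p 0.000643, range over the alternatives 0.000643 to 0.209). *Sesn2*, another stress-responsive inhibitor, gave 0.35 ± 0.19 (adjusted p 0.209). *Mtor* itself gave -0.38 ± 0.16 (adjusted p 0.108) on the 1 of its 2 probes that was detected, and the probe of *Rptor*, its partner in the complex, was detected on no array.

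Of the other branch below mTORC1 and the kinases that act on eIF4E, 6 of 14 tested probes (42.9%) were called higher and none lower. Over all tested probes these shares were 15.8% higher and 17.3% lower. *Eef2*, the elongation factor that moves the ribosome along, rose by 1.03 ± 0.17 (SE, adjusted p 0.00445, range 0.000862 to 0.0259) and was called on all 3 probes. The other two *Eef2* probes lost their call in 3 and 4 of 15 alternatives, with adjusted p up to 0.0609 and 0.0623, both without hSRY-OFF replicate 1. The MNK kinases, which phosphorylate eIF4E itself, rose by 0.64 ± 0.14 for *Mknk1* (adjusted p 0.0131) and 0.84 ± 0.19 for *Mknk2* (adjusted p 0.0135). *Rps6*, the ribosomal protein that S6 kinase phosphorylates, rose by 0.50 ± 0.12 (adjusted p 0.0152). None of the 4 probes of the S6 kinase gene *Rps6kb1* was detected in hSRY-OFF livers and 1 of them was detected on a single hSRY-ON array, so the kinase was not measurable. *Mknk1* was not called without hSRY-OFF replicate 2 (0.0545, range from 0.00663), *Mknk2* without hSRY-OFF replicate 1 (0.0592) or 2 (0.0545, range from 0.00691), and *Rps6* without hSRY-OFF replicate 1 (0.0592) or 2 (0.0607, range from 0.00209). Without hSRY-OFF replicate 1 or 2 the list kept 2 and 1 calls.

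The eIF2 arm, the second major brake on initiation, had 6 of 15 tested probes called higher and 1 lower (46.7% called, against 33.1% of all tested probes). Of the 6, 2 were probes of the same gene, *Eif2b5*, at 0.38 and 0.34 (adjusted p 0.0362 and 0.0458). Another *Eif2b5* probe gave 0.23 and was not called (adjusted p 0.144). *Ppp1r15a*, the phosphatase subunit GADD34 that reverses eIF2 phosphorylation, rose by 1.47 ± 0.31 (SE, adjusted p 0.0109). *Atf4*, the transcription factor translated when eIF2 is phosphorylated and a known activator of *Eif4ebp1*, rose by 0.66 ± 0.15 (adjusted p 0.0158) on 1 of 2 probes, the other being undetected. *Eif2ak1*, the heme-regulated eIF2 kinase that is abundant in erythroid cells, rose by 0.74 ± 0.17 (adjusted p 0.0169), and *Eif2ak2*, the kinase PKR, fell by 0.57 (SE 0.17, adjusted p 0.0401). Erythroid markers were also higher in hSRY-ON, at 60346 to 67026 normalized units against 53463 to 59610. Of their 6 tested probes, 2 were called higher, against 15.8% of all tested probes. The part of these markers in the value of *Eif2ak1* was not tested. *Ddit3*, the stress factor CHOP, gave 1.35 (adjusted p 0.0309) and was chosen for mention after its value was seen.

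This arm depended most on single arrays, with 0 calls higher without hSRY-OFF replicate 1, 1 without replicate 2 and 3 without replicate 3 or without hSRY-ON replicate 1. Without hSRY-OFF replicate 1 the adjusted p was 0.0504 for *Ppp1r15a* (range from 0.00637), 0.0688 for *Atf4* (range from 0.00473), 0.0725 for *Eif2ak1* (range from 0.0082) and 0.129 for *Eif2ak2* (range from 0.0206), each the highest of its alternatives. *Atf4* and *Eif2ak1* were also not called without hSRY-OFF replicate 2 (0.0646 and 0.0680), nor *Eif2ak1* without hSRY-ON replicate 1 (0.0530). *Eif2ak2* was called only without hSRY-ON replicate 3 when 1 array was left out. *Ddit3* was not called without any 1 of the hSRY-OFF arrays (range 0.0171 to 0.101). The 2 called *Eif2b5* probes lost their call in 9 and 10 of 15 alternatives, with adjusted p up to 0.158 and 0.269.

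Of the transcription factors known to act on the genes of the family, 2 of 7 tested probes (28.6%) were called higher, those of *Atf4*, given above, and *Myc*, which binds E-boxes in the promoter of *Eif4e*. None was called lower, and the shares over all tested probes were 15.8% called higher and 33.1% in either direction. *Myc* was detected on no hSRY-OFF array and on all 3 hSRY-ON arrays, at intensities of 320, 304 and 197 against 170, 163 and 157. It passed the detection filter through the hSRY-ON arrays alone, so its adjusted p of 0.0033 depends on that choice, and with no filter it was 0.00808 (range 0.00195 to 0.0194 over 12 alternatives). Omitting an hSRY-ON array left *Myc* under the filter and untested, so the range does not cover those cases. The bound on the fold was 2.65 with the background subtraction used here, but the fitted log2 difference of 1.88 was 1.29 with an offset of 50 and 0.73 without subtraction. Its second probe was detected on no array. *Tfe3*, reported to act on *Eif4ebp3*, gave 0.28 ± 0.15 (adjusted p 0.185), and both probes of its relative *Tfeb* were detected on no array. *Ankhd1*, which lies beside *Eif4ebp3* in the genome and can form a readthrough transcript with it, had no probe on the array.

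The differences of the binding proteins under other ways of processing the same arrays differed in width. For *Eif4ebp1* they ran from 1.34 to 1.49 and for *Eif4ebp2* from -0.10 to -0.05 across background correction, scaling, filters and variance models. For *Eif4ebp3* they ran from 3.45 to 5.69, because its hSRY-OFF level is set by the background step.

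**Figure D4:**
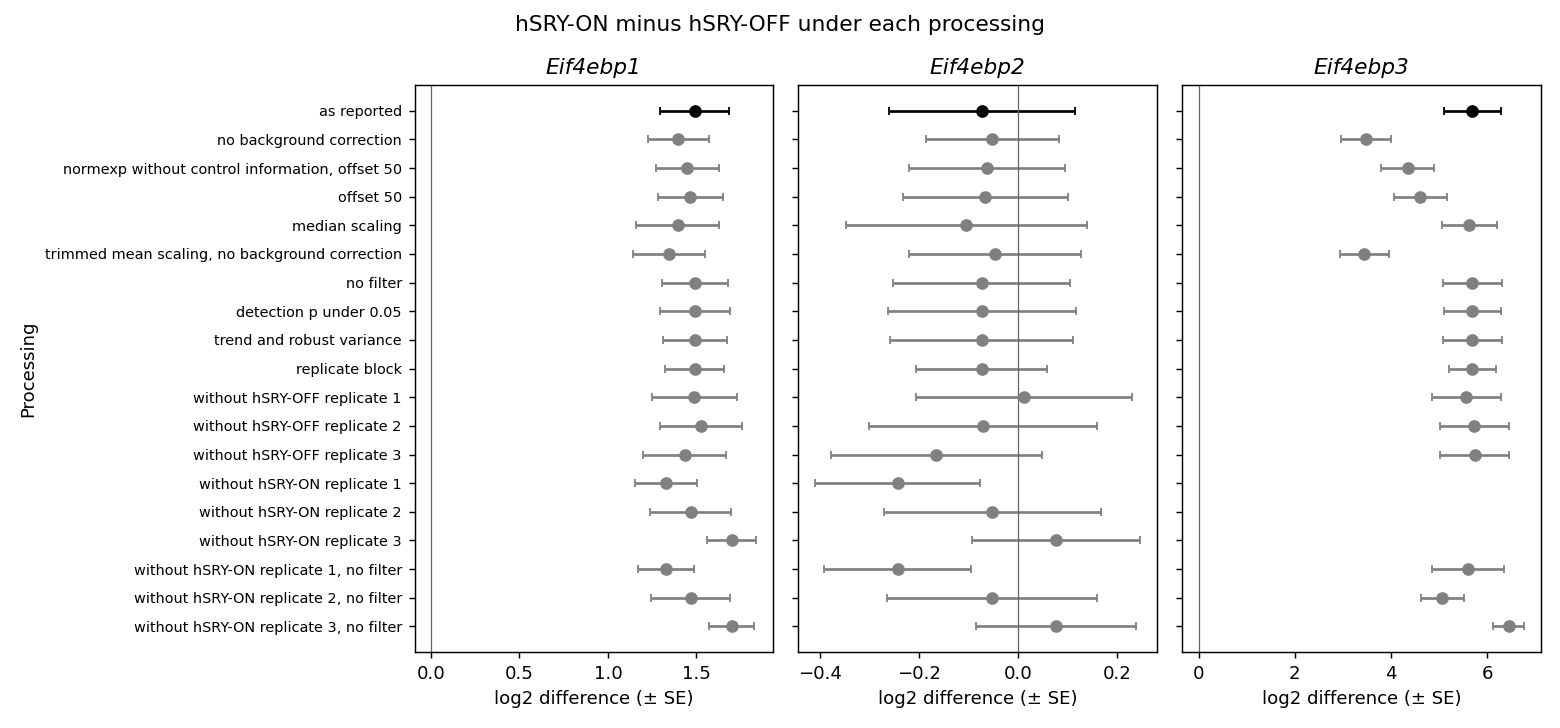
Log2 difference, hSRY-ON minus hSRY-OFF, of the 3 tested binding protein genes under each processing alternative, 1 panel per gene with its own horizontal scale (points with bars of ± SE, the reported setting in black, and no point where the probe was under the filter). *Eif4ebp1* stays between 1.33 and 1.70, *Eif4ebp2* straddles 0 from -0.24 to 0.08, and *Eif4ebp3* ranges from 3.45 to 6.45.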

How the data were processed

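The authors extracted total RNA, labelled it as biotinylated cRNA and hybridised it to MouseRef-8 v2.0 arrays. They deposited, for each of 25697 probes and 6 arrays, a linear mean bead intensity, neither background-subtracted nor normalized, and a detection p-value against negative control beads. The processing notes name limma, while the study's methods name TCC, a package for counts, with no model. Scanner software, outlier filter and genome build were not given in the sources used here. Every value column was matched to a sample (0 without one).

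Background was inferred from the detection p-values and removed by normexp (nec, offset 16) in limma 3.58.1 (R 4.3.3). Arrays were then quantile normalized on the linear scale, and the log2 was taken afterwards. The filter asked for detection (p under 0.01) on 3 or more of the 6 arrays, and the 10734 probes left were tested with lmFit and eBayes, hSRY-ON minus hSRY-OFF without covariates, two-sided, with Benjamini-Hochberg adjustment and a threshold of 0.05. The offset shrinks differences of dim probes. Where no array of the dim group detected a probe, the bright mean was divided by the mean of the lowest detected signal of the dim arrays, or of the probe's own signal where higher. The test was tried on simulated data.

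Groups follow the labels. The members and the gene lists were chosen with earlier results of these data known. Named in each list were up to 3 genes called higher and up to 3 called lower by smallest p, 16 genes whatever their value, and the 3 probes most like each tested member. Of 18138 symbols, 14307 were current in RefSeq, 2927 matched an older name and 904 kept the array's name; *Lamtor2*, *Mtor*, *Ppp1r15a* and *Tfe3* stood under older names. The number of arrays limits precision. The p-values rest on the spread among 3 mice per group, which eBayes moderates toward a value drawn from all tested probes.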

Additional observations from a re-analysis of the deposited data

How the results depend on the processing

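The 10 alternatives to background correction, scaling, filter, variance model, block and threshold, and the omission of each array, gave *Eif4ebp1* a log2 difference of 1.33 to 1.70 and *Eif4ebp2* one of -0.24 to 0.08. *Eif4ebp3* was 5.69 and became 3.48 without background correction, 4.61 with an offset of 50, 4.34 with normexp without control information and that offset, and 3.45 with trimmed mean scaling and no background correction. Omitting an hSRY-OFF array gave it 5.57 to 5.74. Omitting an hSRY-ON array left the probe under the detection filter, and with no filter, an alternative added after the data were seen, it was 5.06 to 6.45.

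With an adjusted p under 0.01, 693 probes were called higher and 972 lower in place of 1700 and 1854, and 4 and 0 pathway probes in place of 27 and 4. Median scaling called 16 pathway probes higher, and no filter called 2 lower. Without 1 array at a time the counts were 856 to 1822 higher and 965 to 2125 lower over all probes, and 8 to 27 and 0 to 8 in the pathway lists. No scaling moved the median of all probes beyond -0.04 to 0.03.

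The replicate numbers are not known to pair the mice, and the deviations of same-numbered arrays correlated with r 0.02, 0.10 and 0.05. With the replicate block, 1565 probes were called higher and 1645 lower, 25 and 4 in the pathway lists, and the differences of *Eif4ebp1*, *Eif4ebp2* and *Eif4ebp3* stayed at 1.49, -0.07 and 5.69. Signal near background limits *Eif4e*, *Rptor*, *Tfeb* and *Rps6kb1*, for which no difference could be measured.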
